A study of Mus musculus with 3 samples.

Results

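Cytochrome P450 enzymes were examined in mouse lung at the level of their transcripts. Gene symbols of the form Cyp, family number, subfamily letter and gene number were taken from the 3 deposited libraries, without Cyp1a1, Cyp1b1, Cyp51 and pseudogenes. Of 98 such symbols among the 23183 genes measured, the 25 with at least 1 FPKM (fragments per kilobase of transcript, scaled to the mapped reads, a level that corrects for gene length) in any library were kept as members. The other 73 stayed below that level, and 48 of them were listed at 0 in all 3 libraries. Just inside the limit lay Cyp11a1, at most 1.127 FPKM, and just outside it Cyp4f17, at most 0.960 FPKM.

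P450 enzymes are heme proteins that insert 1 atom of oxygen into their substrates, mostly at the endoplasmic reticulum with electrons from the reductase encoded by Por, or in mitochondria with electrons from ferredoxin. Some families oxidise drugs, toxicants and inhaled chemicals, and others make or break down steroids, bile acids, eicosanoids, retinoic acid and vitamin D. In mouse lung the xenobiotic enzymes are known chiefly from the club cells, the secretory cells of the small airways, where CYP2F2 turns naphthalene into a toxic epoxide. A list of P450 genes known from club cells held Cyp2f2, Cyp2a4, Cyp2a5, Cyp2b10, Cyp2s1 and Cyp4b1. Of these, 5 were members and Cyp2a4 was not, which left 20 other members.

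Lung homogenate of female BALB/c mice was the source of each library. Their age is labelled as 10 weeks, the protocol on housing gives 5 to 6 weeks, and neither says at which stage; 5 mice were assigned to each group. The control group is labelled only as such, and a vehicle is not named. Mice of the PM10 group were given a certified fine-dust reference material (ERMCZ-120, particles up to the PM10 size class) in saline into the nose 4 times over 2 weeks. The OVA+PM10 group was given those particles and also ovalbumin (OVA), an egg-white protein used to model allergic asthma: intraperitoneal sensitisation with alum, the last on day 14, then intranasal challenge on days 21, 22 and 23. The labels give particle doses of 100 or 200 µg without saying which was sequenced, and do not say whether a library held RNA of 1 mouse or of several.

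Each group had 1 library, so no test between groups was possible and every ratio compares libraries, not conditions. A library of mice given OVA alone was not analysed here. From the smallest steps between low values, depth was about 20300000 reads in the control, 13300000 reads in the PM10 and 15300000 reads in the OVA+PM10 library. In every library the lung markers Scgb1a1 (club cells, 42979 to 65013 FPKM) and Sftpc (alveolar type 2 cells, 22645 to 56646 FPKM) were abundant. The control library also held markers of stratified squamous epithelium (11 measured genes, 4979 FPKM summed) and of skeletal muscle (10 genes, 4036 FPKM), which summed to 22.7 to 46.7 FPKM in the exposed libraries. In bulk tissue, fewer cells of a type and less RNA per cell cannot be told apart.

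Lung P450 transcripts were dominated by the club cell members. Cyp2f2 had 1299.6 FPKM in the control, 1059.9 FPKM in the PM10 and 1732 FPKM in the OVA+PM10 library, from about 49162, 26266 and 49344 reads. This 1 gene made up 66.4%, 63.0% and 76.6% of the summed FPKM of all members, and the 5 club cell members together 93.2%, 91.5% and 94.2%. Cyp2f2, Cyp4b1 and Cyp2b10 were the 3 most abundant members, in this order, in each of the 3 libraries. Below them the order changed: Cyp2a5 was the fourth in the control library and number 11 in the PM10 library, and Cyp26b1 moved from number 16 to number 5. As a share of all summed FPKM the members held 0.358%, 0.130% and 0.264%. These shares depend on totals that differed more than the members did. All genes summed to 546315, 1293180 and 855739 FPKM, and the members to 1956, 1682 and 2262 FPKM.

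**Figure D1:**
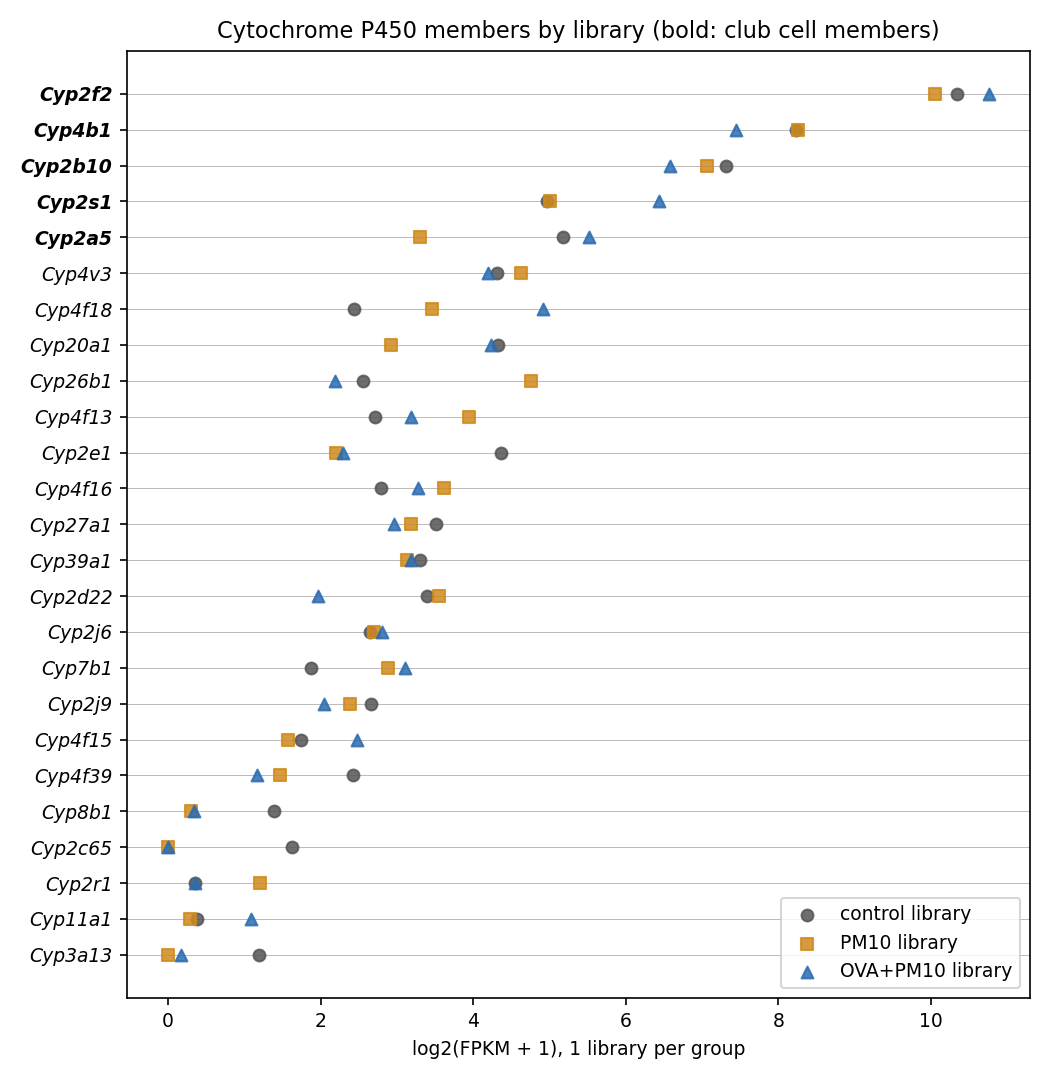
Level of each of the 25 P450 members in the 3 libraries, as log2(FPKM + 1) on the horizontal axis, 1 point per library, ordered by mean level. The 5 club cell members (bold) lie at the top, and Cyp2a5, Cyp26b1, Cyp4f18 and Cyp2e1 show wide gaps between libraries.

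Among the club cell members the libraries differed gene by gene and not as a block. Cyp4b1, which activates plant furans and other lung toxicants, had 299.8 FPKM in the control, 305 FPKM in the PM10 and 174 FPKM in the OVA+PM10 library. Cyp2b10, the phenobarbital-inducible form, had 158.5, 133 and 94.9 FPKM. Both were lowest in the OVA+PM10 library, with log2 ratios to control of -0.78 and -0.73, within 2-fold. With the trend over transcript length removed, Cyp4b1 came to -1.015, just past 2-fold. With libraries scaled to the same sum, Cyp4b1 and Cyp2b10 came to -1.43 and -1.38, and the median over all genes to -0.56. (Ratios here are of FPKM + 1 on the log2 scale, which understates the change of low genes.)

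Cyp2s1, an epithelial P450 found mostly outside the liver, had 30.4 FPKM in the control, 31.3 FPKM in the PM10 and 85.8 FPKM in the OVA+PM10 library. It thus differed in the opposite sense to Cyp4b1 and Cyp2b10, with log2 ratios of 1.47 to control and 1.43 to the PM10 library. With libraries scaled to the same sum, its ratio to control was 0.84, within 2-fold. Cyp2a5, which oxidises coumarin and nicotine, had 35.3, 8.88 and 44.8 FPKM. The PM10 library stood apart for this gene, with a log2 ratio of -1.88 to control, while the ratio of the OVA+PM10 library to control was 0.34.

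These contrasts can be read within each library, where no scaling between libraries enters. Relative to Cyp2f2 in the same library, Cyp4b1 stood at 23.1% in the control, 28.8% in the PM10 and 10.0% in the OVA+PM10 library. Cyp2b10 stood at 12.2%, 12.6% and 5.48%. Cyp2s1, in contrast, stood at 2.34%, 2.95% and 4.96%, and Cyp2a5 at 2.71%, 0.838% and 2.59%. Cyp2f2 itself was set against Scgb1a1, the main club cell secretory protein. It had 30.2 FPKM per 1000 FPKM of Scgb1a1 in the control, 21.0 in the PM10 and 26.6 in the OVA+PM10 library. A trend over transcript length stays in such ratios where the genes compared differ in length. For PM10 to control, the median log2 ratio was 1.019 among the shortest transcripts and -0.752 among the longest. For OVA+PM10 to control, these medians were 0.559 and -0.348. The part of this trend in the ratios to Cyp2f2 and Scgb1a1 was not tested.

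**Figure D2:**
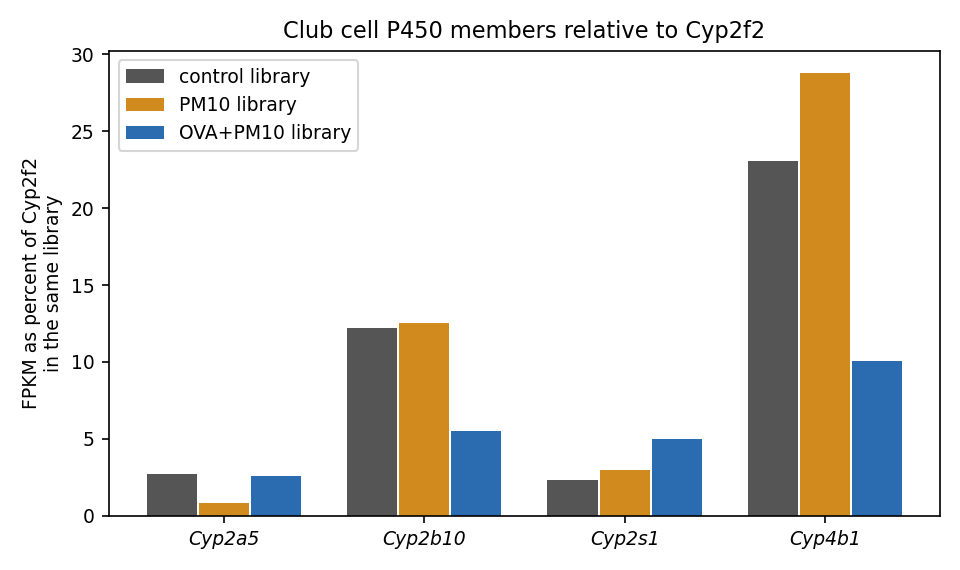
FPKM of 4 club cell P450 members as a percent of Cyp2f2 in the same library, with 1 bar per library and no error bars because each group had 1 library. Cyp4b1 and Cyp2b10 are lowest in the OVA+PM10 library (10.0% and 5.48%), Cyp2s1 is highest there (4.96%), and Cyp2a5 is lowest in the PM10 library (0.838%).

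The median log2 ratio of the 5 club cell members was -0.25 for the PM10 library and 0.34 for the OVA+PM10 library, each relative to control, and 0.71 between the exposed libraries (OVA+PM10 to PM10). The 20 other members had medians of -0.13, -0.12 and 0.02, and all 14145 genes with at least 1 FPKM in any library 0.008, -0.001 and -0.011. Scaling to the same summed FPKM would move the last 3 to -1.003, -0.56 and 0.44, so directions here are relative to the median gene as deposited. On that scale the club cell median of the OVA+PM10 library to control lay on the other side of 0, at -0.30. As deposited, without that scaling, the same median went from 0.34 to -0.16 when Cyp2a5, a gene with a near-identical copy, was left out.

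Relative to control, 3 of 18 club cell markers were higher by 2-fold or more with PM10 and 4 were lower. With OVA+PM10, 10 were higher and 3 lower. For this and the later gene lists, the shares over all genes against control were 13.6% higher and 13.9% lower with PM10. With OVA+PM10 these shares were 9.95% and 8.68%. The summed level of these 18 markers was 49650 FPKM in the control, 58914 in the PM10 and 78087 in the OVA+PM10 library, and none was at 0. Scgb1a1 alone, with 42979, 50391 and 65013 FPKM, made up most of these sums. Krt15, a marker counted as lower in both exposed libraries, had 83.9, 0.45 and 0.82 FPKM. It was high in the control library, as were the markers of squamous epithelium. All 8 goblet cell markers were higher by 2-fold or more in the OVA+PM10 library than in both others. Over all genes, 11.8% were higher in the OVA+PM10 than in the PM10 library. The goblet cell markers summed to 6550 FPKM with OVA+PM10, of which Clca1 alone had 5628, against at most 13.4 FPKM elsewhere. The part of club and goblet cell numbers in the differences among club cell P450 genes was not tested.

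Of the club cell members, 4 share a cluster on mouse chromosome 7, where 13 P450 genes with values lie between 25802475 and 27158668 (GENCODE M21 on GRCm38, the assembly mm10 names). Cyp2s1 (25802475 to 25816913, minus strand) and Cyp2b10 (25897620 to 25926624) lie near one end, and Cyp2a5 (26835305 to 26843548) and Cyp2f2 (27119909 to 27133660) near the other. The 9 P450 genes that share the cluster with them, including Cyp2g1 and Cyp2t4 beside Cyp2a5 and Cyp2f2, reached at most 0.351 FPKM, and 6 were at 0 in all libraries. High and undetected genes were therefore neighbours in this cluster. Cyp4b1 lies elsewhere, on chromosome 4 (115624725 to 115647723).

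**Figure D3:**
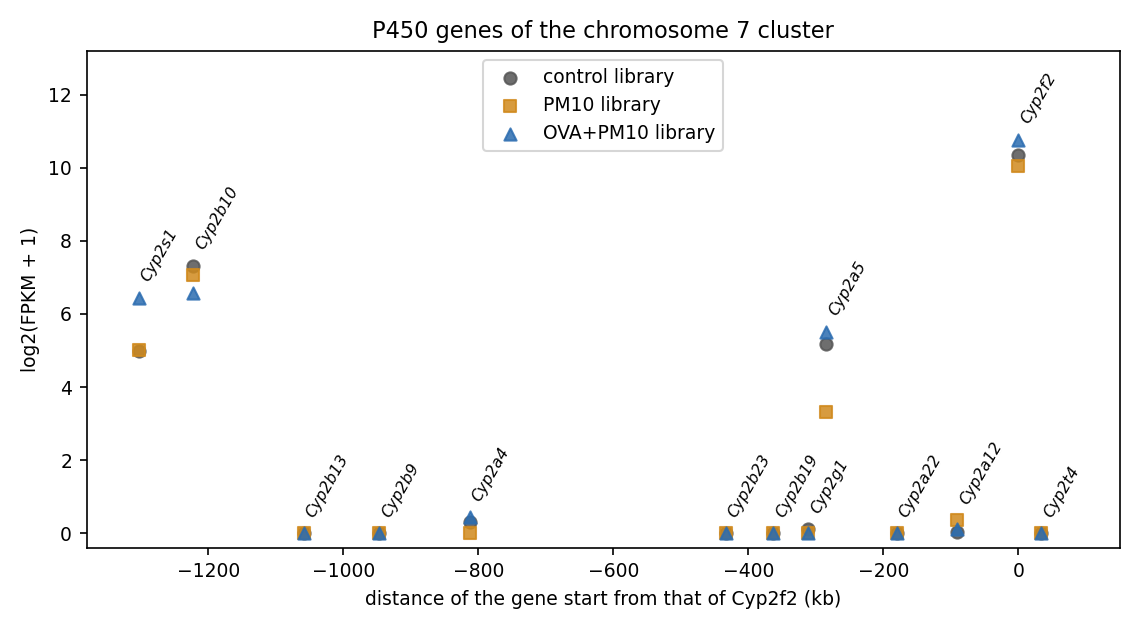
Level of the 13 P450 genes of the chromosome 7 cluster as log2(FPKM + 1) against the distance of each gene start from that of Cyp2f2 in kb, 1 point per library. Cyp2s1, Cyp2b10, Cyp2a5 and Cyp2f2 stand clear of the 9 other genes, none of which exceeded 0.351 FPKM.

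The 250 bases before the RefSeq start of these 4 genes, and of Cyp2a4, are shown because genes of 1 cluster had such different levels. They are from RefSeq, build GRCm38.p6, 5′ to 3′ on the strand of the gene. RefSeq starts differ from those of GENCODE: each window runs past the GENCODE start, and that of Cyp2s1 lies wholly inside its GENCODE span. Distances to a start below are to the RefSeq start. Capitals mark matches, on either strand, to a core of the aryl hydrocarbon receptor element (GCGTG), a C/EBP site (TTGCNNAA), a STAT6 site, an NKX2 site (CAAGTG) or a TATA box (TATAAA); no matches overlapped.
Cyp2f2, chr7:27119705-27119954, plus strand: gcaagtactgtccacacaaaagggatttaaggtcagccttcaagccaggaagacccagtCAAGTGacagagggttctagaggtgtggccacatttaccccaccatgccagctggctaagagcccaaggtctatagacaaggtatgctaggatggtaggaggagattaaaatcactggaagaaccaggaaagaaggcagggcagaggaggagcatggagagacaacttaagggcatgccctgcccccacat
Cyp2b10, chr7:25897408-25897657, plus strand: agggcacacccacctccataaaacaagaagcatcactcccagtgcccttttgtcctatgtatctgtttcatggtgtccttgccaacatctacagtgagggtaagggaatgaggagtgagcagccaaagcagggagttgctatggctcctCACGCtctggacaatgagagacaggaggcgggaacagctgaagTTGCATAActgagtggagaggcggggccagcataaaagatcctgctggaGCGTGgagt
Cyp2a5, chr7:26835089-26835338, plus strand: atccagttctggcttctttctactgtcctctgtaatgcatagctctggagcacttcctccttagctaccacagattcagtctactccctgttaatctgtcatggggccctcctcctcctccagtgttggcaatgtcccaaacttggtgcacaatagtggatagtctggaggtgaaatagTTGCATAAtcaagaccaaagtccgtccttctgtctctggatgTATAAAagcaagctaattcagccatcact
Cyp2a4, chr7:26306942-26307191, plus strand: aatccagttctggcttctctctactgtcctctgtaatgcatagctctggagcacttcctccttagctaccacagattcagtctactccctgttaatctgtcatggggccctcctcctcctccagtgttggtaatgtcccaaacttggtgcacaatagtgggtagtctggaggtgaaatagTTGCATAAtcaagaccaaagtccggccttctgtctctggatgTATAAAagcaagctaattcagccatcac
Cyp2s1, chr7:25816526-25816775, minus strand: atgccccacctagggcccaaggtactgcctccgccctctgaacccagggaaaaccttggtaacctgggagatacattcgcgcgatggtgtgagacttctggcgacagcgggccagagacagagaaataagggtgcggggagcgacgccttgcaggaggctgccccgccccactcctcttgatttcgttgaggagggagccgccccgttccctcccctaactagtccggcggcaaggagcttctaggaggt

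Cyp2f2 held 1 match to the NKX2 core, which begins 191 bases before its start. Cyp2b10 held the C/EBP letters TTGCATAA, 58 bases before its start, and a match to the receptor core on each strand. Cyp2a5 held the same 8 letters 71 bases before its start and a TATA box at 29, and the window of Cyp2s1 held none of the 5 motifs. Of all 32851 RefSeq windows of this length, 28.2% held GCGTG, 9.6% TTGCNNAA, 5.9% the STAT6 site, 11.6% CAAGTG and 12.4% TATAAA. Among the 22 members with a window, 6 held GCGTG, 5 TTGCNNAA, 1 the STAT6 site, 3 CAAGTG and 5 TATAAA. A match of letters is not a bound site, and binding was not measured.

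Cyp2a4 and Cyp2a5 show how alike genes were listed far apart. Their windows were identical at 245 of 251 aligned columns (97.6%), and their transcripts were 98.2% identical over 86.4% of the length of Cyp2a5. Yet Cyp2a4 was listed at 0.229, 0 and 0.351 FPKM, in the order control, PM10, OVA+PM10. The sources used here do not say how reads matching both genes were assigned, so the split between them is uncertain. Their sums, 35.5, 8.88 and 45.1 FPKM, kept the low value of the PM10 library. The same uncertainty holds for Cyp2c65 with Cyp2c66 (96.4% identical) and for Cyp4f16 with Cyp4f37 (96.1%), where the second gene of each pair was below 0.5 FPKM.

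The next comparison asked how P450 transcripts of lungs given particles differed from those of control lungs. A gene was counted as higher or lower at a 2-fold difference of FPKM + 1 where the higher library had 1 FPKM or more. Of 24 members at or above 1 FPKM in either library, 4 were higher in the PM10 library and 6 were lower. Over all 13693 genes so measured, 13.6% were higher and 13.9% lower. The higher members were Cyp26b1, Cyp4f13, Cyp4f18 and Cyp7b1, and the lower ones Cyp2a5, Cyp2e1, Cyp20a1, Cyp2c65, Cyp3a13 and Cyp8b1. Of the lower ones, Cyp2c65, Cyp3a13 and Cyp8b1 became members through the control library alone, so the selection fixed their direction. With a minimum of 5 FPKM, 3 members were lower, beside 13.4% of all genes. The median over all 25 members was -0.17.

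The same count against control for the OVA+PM10 library gave 3 higher members (Cyp2s1, Cyp4f18 and Cyp7b1) and 6 lower ones (Cyp2d22, Cyp2e1, Cyp2c65, Cyp3a13, Cyp4f39 and Cyp8b1) of 24. Over all 13877 genes, 9.95% were higher and 8.68% lower. Cyp2c65, Cyp3a13 and Cyp8b1, members through the control library alone, are again among the lower ones by selection. With a minimum of 5 FPKM, 2 members were lower, beside 9.14% of all genes. Both comparisons with control share that library, so a gene that is unusual there appears in both. The OVA+PM10 library against the PM10 library, which does not use the control, had 4 higher members (Cyp2a5, Cyp2s1, Cyp4f18 and Cyp20a1) and 2 lower ones (Cyp26b1 and Cyp2d22) of 22. Over all 13556 genes, 11.8% were higher and 9.0% lower.

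**Figure D4:**
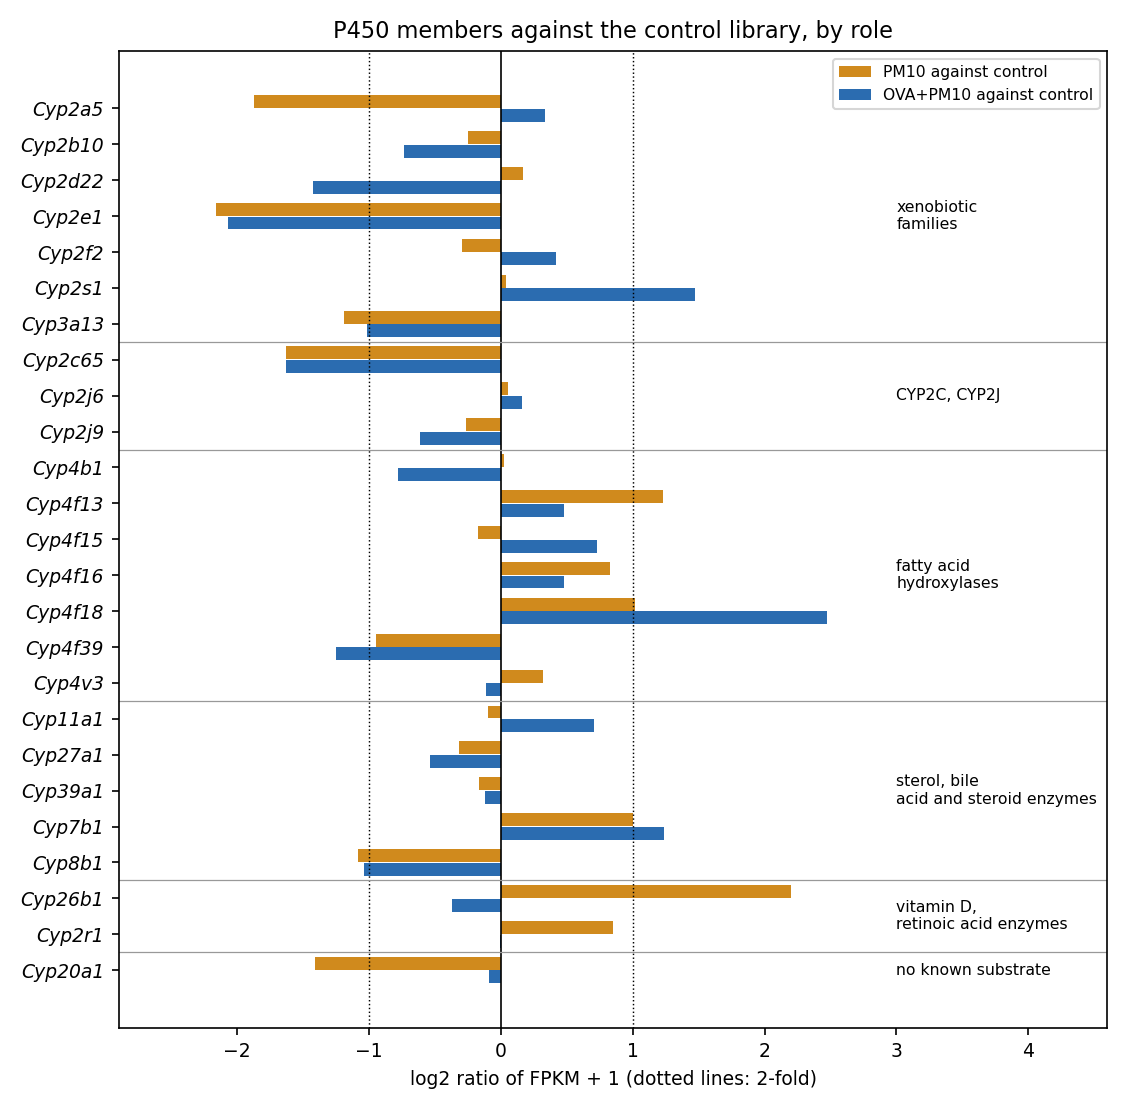
Log2 ratio of FPKM + 1 against the control library for each of the 25 members, grouped by role, with 1 bar for the PM10 library and 1 for the OVA+PM10 library; dotted lines mark 2-fold. Cyp26b1 (2.20) has the longest bar to the right for PM10 and Cyp4f18 (2.48) for OVA+PM10, and Cyp2e1 has the longest to the left in both (-2.16 and -2.07).

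Among the remaining enzymes of drug and toxicant metabolism, none was higher in an exposed library than in the control by 2-fold. Cyp2e1, which oxidises ethanol and other small molecules (chromosome 7, 140763739 to 140774987), had 19.6 FPKM in the control, 3.60 FPKM in the PM10 and 3.89 FPKM in the OVA+PM10 library. The control library was the high one, and the exposed libraries differed from each other by a log2 ratio of 0.09. Cyp2d22, of the drug-metabolising CYP2D group (chromosome 15, 82370527 to 82380260), had 9.48, 10.7 and 2.91 FPKM. Here the OVA+PM10 library was the low one, with log2 ratios of -1.42 to control and -1.59 to the PM10 library. Cyp3a13, of the CYP3A group, had 1.285 FPKM in the control library, was listed at 0 for PM10, and reached 0.128 FPKM with OVA+PM10.

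In the CYP2C and CYP2J groups, which hold epoxygenases of arachidonic acid, Cyp2j6 was nearly level at 5.26, 5.51 and 6.00 FPKM. Cyp2j9 had 5.30, 4.23 and 3.12 FPKM. Neither differed by 2-fold in any comparison. Cyp2c65 had 2.09 FPKM in the control library, from about 82 reads, and was listed at 0 in both exposed libraries.

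Several low members were highest in the control library, together with markers of tissues outside the alveoli. Besides Cyp2c65 and Cyp3a13 these were Cyp8b1, the sterol hydroxylase of cholic acid synthesis (1.61, 0.234 and 0.270 FPKM), and Cyp4f39, which hydroxylates ultra-long fatty acids for the skin barrier (4.35, 1.78 and 1.24 FPKM). Cyp2c65, Cyp3a13 and Cyp8b1 reached 1 FPKM in the control library only, so the selection itself fixed that they were highest there. The measured adipose tissue markers, 9 genes, summed to 489.5 FPKM in the control, 138 in the PM10 and 200.3 in the OVA+PM10 library, with 0, 2 and 1 of the 10 listed at 0. The squamous epithelium list had 0, 6 and 3 of its 12 genes at 0, with Krt13 at 2574, 0 and 0.11 FPKM, and the skeletal muscle list 0, 2 and 2 of its 10. The part of these tissues in the levels of Cyp2e1, Cyp2c65, Cyp3a13, Cyp8b1 and Cyp4f39 was not tested. Markers of hepatocytes, the cells best known for Cyp2e1 and Cyp8b1, were near 0 in the control library, where Alb had 0.24 FPKM and no listed gene passed 0.5 FPKM; the 4 measured ones summed to 10.8 FPKM in the PM10 library.

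The CYP4 enzymes hydroxylate fatty acids and eicosanoids at or near the end of the chain. Cyp4f18, which inactivates leukotriene B4 in myeloid cells (chromosome 8, 71988482 to 72009626), had 4.43 FPKM in the control, 9.96 FPKM in the PM10 and 29.2 FPKM in the OVA+PM10 library. The 3 libraries were well apart, with log2 ratios to control of 1.01 and 2.48 and a ratio of 1.46 between the exposed libraries. The value of 1.01 for PM10 was at the 2-fold limit: it was 0.51 with the trend over transcript length removed, and -0.06, the other direction, when libraries were scaled to the same sum. On the opposite strand Zfp961 overlaps this gene, at 4.17, 4.11 and 3.83 FPKM, and the sources used here do not give the use of strand in counting.

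Markers of leukocytes did not all follow the order of Cyp4f18 over the libraries. The 10 alveolar macrophage markers summed to 480.4, 1457 and 2839 FPKM. Relative to control, 5 were higher and none lower with PM10, and 4 were higher and 2 lower with OVA+PM10. Chil3, with 93.4, 640.7 and 2106 FPKM, made up much of the sums of the exposed libraries. In the control library Car4, with 158 FPKM, was above it. Marco and Fabp1 were the 2 lower ones with OVA+PM10. The 9 measured neutrophil markers, a list added after the members' values had been seen, summed to 1032, 969.9 and 3599 FPKM, none at 0; relative to control, none was higher and 1 lower with PM10, and 5 were higher and 1 lower with OVA+PM10. Lists of eosinophil and dendritic cell markers and of the leukotriene route were added in the same way. For the 8 eosinophil markers the sums were 99.3, 83.1 and 367 FPKM, with none higher and 4 lower for PM10 to control and 5 higher and none lower for OVA+PM10 to control; 3 were at 0 in the PM10 library. The 10 dendritic cell markers summed to 346, 845 and 756 FPKM, most of it from H2-Ab1 with 291, 588 and 593 FPKM. Relative to control, 3 of them were higher and 1 lower with PM10, and 4 were higher and none lower with OVA+PM10. Of 4 measured genes that make or sense leukotriene B4, Alox5ap had 37.2, 70.5 and 97.2 FPKM and Alox5 7.75, 2.28 and 7.68 FPKM. Lta4h had 22.2, 42.5 and 29.7 FPKM, and the receptor Ltb4r1 had 2.60, 0.92 and 5.88 FPKM. Relative to control, none was higher and 1 lower with PM10, and 1 was higher and none lower with OVA+PM10. The part of leukocyte numbers in the level of Cyp4f18 was not tested.

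The other CYP4F genes lie on chromosome 17. Cyp4f13 had 5.55, 14.3 and 8.10 FPKM, highest in the PM10 library with a log2 ratio of 1.23 to control, or 0.76 without the length trend. Cyp4f16 had 5.92, 11.3 and 8.66 FPKM, and Cyp4f15 2.35, 1.98 and 4.55 FPKM. Cyp4v3, a fatty acid hydroxylase whose human counterpart is mutated in a retinal dystrophy, was level at 18.8, 23.7 and 17.4 FPKM. Neither Cyp4f15, Cyp4f16 nor Cyp4v3 reached 2-fold of FPKM + 1 in any comparison.

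Enzymes of sterols and steroids were low and few. Cyp7b1, an oxysterol hydroxylase that takes part in making a chemoattractant of lymphocytes (chromosome 3, 18071950 to 18243338), had 2.67 FPKM in the control, 6.35 FPKM in the PM10 and 7.62 FPKM in the OVA+PM10 library. Both exposed libraries were above the control, with log2 ratios of 1.00 and 1.23; the first was 0.68 without the length trend and 0.01 with libraries scaled to the same sum. In the same route, a list added after these values had been seen, Ch25h had 2.80, 27.6 and 17.6 FPKM. Hsd3b7 had 18.6, 23.7 and 18.1 FPKM, and the receptor Gpr183 had 2.73, 3.60 and 4.87 FPKM. Ch25h, which makes the substrate of Cyp7b1, was thus the 1 of these 3 genes past 2-fold.

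Cyp27a1, the mitochondrial sterol hydroxylase, had 10.4, 8.12 and 6.82 FPKM, and Cyp39a1, another oxysterol hydroxylase, 8.91, 7.80 and 8.13 FPKM. Cyp11a1, which makes pregnenolone, had 0.303, 0.217 and 1.13 FPKM, from about 21, 10 and 59 reads. None of these 3 differed by 2-fold on the scale used.

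Retinoic acid and vitamin D are handled by 2 members. Cyp26b1, which breaks down retinoic acid (chromosome 6, 84571414 to 84593908), had 4.90 FPKM in the control, 26.1 FPKM in the PM10 and 3.57 FPKM in the OVA+PM10 library. The PM10 library was far above both others, with a log2 ratio of 2.20 to control (1.08 with libraries scaled to the same sum), and the OVA+PM10 library had a ratio of -2.57 to it. About 447, 1558 and 245 reads lay behind these values. Cyp2r1, which hydroxylates vitamin D, had 0.280, 1.30 and 0.276 FPKM, from about 33 reads at most, and stayed within 2-fold of FPKM + 1.

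Other retinoid genes, also a list added afterwards, went in both directions. Of 9 measured, 3 were higher than in the control and 2 lower in mice given PM10 alone. Dhrs3, a retinal reductase, had 49.9, 199.8 and 55.4 FPKM, with the high value in the PM10 library, like Cyp26b1. Aldh1a2, which makes retinoic acid, had 10.6, 0.958 and 4.37 FPKM, with the low value there. The retinoic acid receptors Rara and Rarg, from the list of nuclear receptors, had 14.3, 6.90 and 14.6 FPKM and 25.4, 8.42 and 14.0 FPKM. Rarb, from the same list, was not low with PM10, at 2.70, 2.96 and 5.64 FPKM. For PM10 to control, Rarg was past 2-fold (log2 ratio -1.49), and Rara (-0.96) and Rarb (0.10) were within it. Fibroblast markers also differed between libraries, with 4 of 8 lower and 2 higher for PM10 to control and sums of 2444, 4835 and 1520 FPKM. Inmt carried the high sum of the PM10 library: without it the other 7 summed to 672, 321 and 693.5 FPKM, lowest in that library. Their part in these values was not tested.

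Cyp20a1, a P450 with no known substrate (chromosome 1, 60343323 to 60388060), had 19.1 FPKM in the control, 6.57 FPKM in the PM10 and 17.9 FPKM in the OVA+PM10 library. The PM10 library was low against both others, with log2 ratios of -1.41 for PM10 to control and 1.32 for OVA+PM10 to PM10.

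The proteins that serve P450 enzymes had values of their own. Por, the electron donor of all microsomal P450 enzymes, had 97.6 FPKM in the control, 66.1 FPKM in the PM10 and 212.6 FPKM in the OVA+PM10 library. Of 9 measured redox partners, 2 were higher than in control and none lower with PM10 (Fdx1 and Fdx1l, ferredoxins of mitochondria), and 2 were higher and none lower with OVA+PM10 (Por and Fdx1). Fdx1 had 36.1, 82.8 and 75.4 FPKM. Cyb5a, the cytochrome that assists some P450 enzymes and the most abundant of the list, had 261.7, 466 and 299 FPKM, within 2-fold. Alas1, the first enzyme of heme synthesis, had 72.0, 55.0 and 139 FPKM, and of 10 genes of heme synthesis and breakdown, 1 was higher and 1 lower with PM10, and 1 higher and none lower with OVA+PM10. Por and Alas1 were both highest in the OVA+PM10 library and lowest in the PM10 library.

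Of 30 measured enzymes that act on the same compounds by other oxidations or by conjugation, 1 was higher and 6 lower in the PM10 library, and 7 higher and 3 lower in the OVA+PM10 library. Cbr2, Aldh1a1, Aldh1a7 and Gsta3 were also on the list of club cell markers, so the counts of these lists overlap. Over all genes, 13.6% were higher and 13.9% lower with PM10, and 9.95% and 8.68% with OVA+PM10. Gsto1, a glutathione transferase, had 88.6, 67.6 and 473 FPKM, and Cbr2, a carbonyl reductase of club cells, 3619, 2996 and 7258 FPKM. Fmo2, the flavin monooxygenase of lung, had 173.5, 34.8 and 53.8 FPKM, and Sult1d1, a sulfotransferase, 7.30, 0.31 and 4.54 FPKM. Aldh1a1, a retinal dehydrogenase, had 446, 573 and 785 FPKM, within 2-fold. The list thus held genes high in the OVA+PM10 library and genes high in the control. Medians were -0.09 and -0.01 against control.

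Nuclear receptors that control P450 genes ranged widely in level: of 17 listed, 8 had at least 5 FPKM in every library and 4 stayed below 1 FPKM throughout. Nr1i3 and Nr1i2, the xenobiotic receptors CAR and PXR, had at most 0.08 and 1.07 FPKM. Of 13 measured receptors, 1 was higher and 2 lower in the PM10 library, and none was higher and 1 lower in the OVA+PM10 library. Nr1h3, the oxysterol receptor LXR alpha, had 23.3, 62.4 and 22.3 FPKM, and Ppard 8.61, 1.67 and 5.90 FPKM. For Nr1h3 and Ppard the PM10 library was the one that stood apart. Nr1h2, the related LXR beta, had 41.0, 25.2 and 52.0 FPKM. Nr3c1, the glucocorticoid receptor, had 37.7, 20.2 and 17.5 FPKM and was the receptor called lower with OVA+PM10 (log2 ratio -1.07). The eicosanoid P450 genes with other symbols, Ptgis (prostacyclin synthase) and Tbxas1 (thromboxane synthase), had 47.2, 97.7 and 43.8 FPKM and 5.19, 10.5 and 16.6 FPKM.

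**Figure D5:**
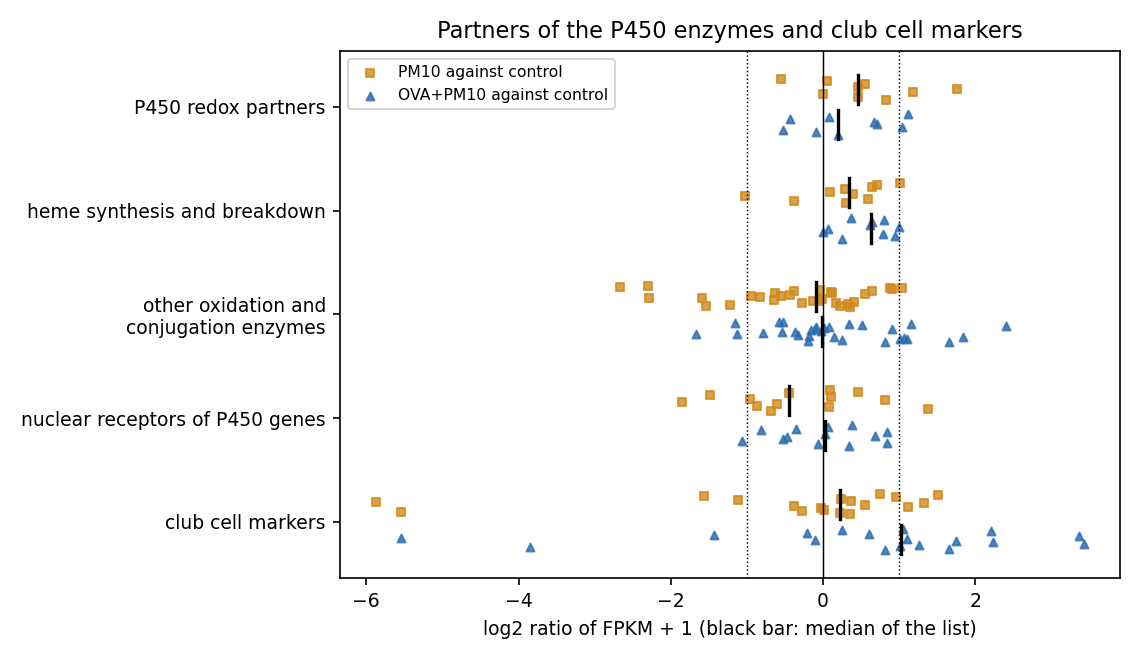
Log2 ratio of FPKM + 1 against control for genes of 5 lists, 1 point per gene and comparison, with a black bar at the median of the list; dotted lines mark 2-fold. Club cell markers have medians of 0.23 (PM10) and 1.03 (OVA+PM10), and the other lists have medians between -0.45 and 0.63.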

How the data were processed

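Gene expression in 3 lung RNA libraries was taken as FPKM values deposited by the authors, 1 value per gene symbol and library; the unit was inferred from the values, as the files name none. TopHat and mm10 were used, per the submitters' processing notes. The sources used here do not give the counting program, annotation, strand use or multi-mapping rule. Members and gene lists were chosen with earlier results of these data known. Any member could be named; full values are given for those with at least 5 FPKM or a 2-fold difference, and from other lists up to 3 of the most abundant genes and up to 3 with the largest ratios could be named; not all of these are printed, and list genes named beyond them were chosen after their values were seen. Log2 ratios of FPKM + 1 were computed with Python 3.11.15 and pandas 2.3.3, and tested on simulated data. Depth came from the FPKM times transcript length of 1 read (49.3 in the control, 75.3 in the PM10 and 65.5 in the OVA+PM10 library), and read numbers are approximate. Lengths, from GENCODE M21, matched 95.5% of symbols. Transcripts were compared with blastn 2.17.0, and promoter windows aligned with Biopython 1.88. Alternatives were pseudocounts of 0.25 and 5, other minimums and thresholds, 2 scalings, removal of the trend over transcript length (median in a sliding window of 501 genes), a shorter club cell list and, chosen after seeing the data, leaving out members with a near-identical transcript.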

Additional observations from a re-analysis of the deposited data

How the results depend on the processing

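Counts and medians below are over the members; beside a count stands the share of all genes that passed under the same setting. No paired analysis was possible because each group had 1 library, and for the same reason no replicate could be left out. For PM10 against control, 4 higher and 6 lower members became 1 and 3 with 5 added to each value (all genes 9.25% and 5.47%), 1 and 1 at 4-fold (2.21% and 3.83%) and 1 and 15 with libraries scaled to the same sum (1.76% and 51.2%). Higher members were 2 after scaling by the median ratio (13.0%), where Cyp4f18 and Cyp7b1 came to 0.99 and 0.98, and 1 with the length trend removed (7.93%); lower members were 3 with a minimum of 5 FPKM (13.4%). For OVA+PM10 against control, 3 higher and 6 lower members became 1 and 1 at 4-fold (1.49% and 1.99%) and 1 and 10 with the same sum (4.3% and 24.1%). Lower members were 1 with 5 added (3.78%) and 2 with a minimum of 5 FPKM (9.14%), and 5 were higher at 1.5-fold (20.6%). For OVA+PM10 against PM10, 4 higher and 2 lower members became 1 and 1 at 4-fold (2.14% and 0.819%) and 7 and 5 at 1.5-fold (22.7% and 22.5%), and 1 was lower with 5 added (4.93%). With the same sum, club cell medians were -1.49, -0.30 and 1.30 in the 3 comparisons, those of the other members -1.02 and -0.73 against control, and the ratio of Cyp4f18 for PM10 to control turned to -0.064. Without the 3 members with a near-identical transcript, the club cell median for OVA+PM10 against PM10 was 0.11, and that for OVA+PM10 against control changed sign, from 0.34 to -0.16. The cause was not tested, beyond the fewer genes that a stricter limit or list leaves. Of 375 ratios of single members under alternatives, 317 moved by less than 1.5-fold and 57 by more, and 1 that was past 2-fold turned its direction. Cyp26b1 stayed past 2-fold for PM10 to control under each alternative scaling, pseudocount and length correction run. The planned comparison by protein identity was not run, because no protein sequences were used here. Cyp2c65, Cyp3a13, Cyp8b1, Cyp11a1 and Cyp2r1 rest on at most 82 reads in any library, with no replicates to show their error.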

Other observations

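Among P450 symbols left out by the selection, the pseudogene Cyp4b1-ps2 had 1.49 FPKM in the control, 4.97 FPKM in the PM10 and 3.39 FPKM in the OVA+PM10 library, while its functional relative Cyp4b1 was lowest in the OVA+PM10 library. Cyp51, which demethylates lanosterol in cholesterol synthesis, had 8.69, 11.4 and 8.12 FPKM. Markers of ciliated airway cells, the neighbours of club cells, were higher in 5 of 10 genes in the PM10 library and in 9 of 10 in the OVA+PM10 library, each against control, and none was lower.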
